A study of Arabidopsis thaliana with 4 samples.

Results

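The genes described here are 10 loci of nitrate uptake and assimilation in Arabidopsis thaliana, chosen by locus identifier from the 33059 features of a gene-level expression table. They are the nitrate transporters NRT1.1 (AT1G12110), NRT1.5 (AT1G32450) and NRT2.1 (AT1G08090), the nitrate reductases NIA1 (AT1G77760) and NIA2 (AT1G37130), the nitrite reductase NIR1 (AT2G15620), the siroheme enzyme UPM1 (AT5G40850), the plastid enzymes GLN2 (AT5G35630) and GLU1 (AT5G04140), and the transcription factor NLP7 (AT4G24020). All 10 were found. RNA was sequenced from samples labelled as rosette leaves of plants aged 28 days. Wild type (WT) was compared with plants (OE) in which the 35S promoter of cauliflower mosaic virus, active in most plant cells, drives the ethylene response factor ERF4, a transcriptional repressor. Each genotype had 2 libraries, the labels name no other treatment or allele, and they do not say whether libraries came from separate plants or how many transgenic lines were used. The spread behind the p-values is that between libraries and may therefore be technical.

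Nitrate taken up from the soil is reduced to nitrite by nitrate reductase in the cytosol and then to ammonium by nitrite reductase in the plastid. Glutamine synthetase and glutamate synthase bind the ammonium into glutamine and glutamate. In leaves the same plastid enzymes also recover the ammonium released by photorespiration. Nitrate itself induces transcripts of many of these steps, and NLP7 is a regulator of that response.

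Values are in TPM, which divide by transcript length and give each library 1 total, so levels of different genes can be set side by side and read depth is unknown. In the bulk samples fewer cells of a type and less RNA per cell cannot be told apart. The overexpressed gene, ERF4 (AT3G15210), was used to check the labels. It was at 9.68 and 10.6 TPM in WT against 24.5 and 28.8 TPM in OE, so both OE libraries stood above both WT libraries. That held for 13.7% of all features averaging 1 TPM or more. The log2 fold change of ERF4 was 1.31 (SE 0.351, Benjamini-Hochberg adjusted p = 0.381, limma), so it did not pass the test described below. The labelled tissue was checked with marker genes. All 6 leaf mesophyll markers had at least 5 TPM in every library, with sums of 19784 to 56546 TPM, and so did 6 of 7 root markers, with sums of 2924 to 4220 TPM. Among these were PYK10, an abundant root beta-glucosidase, at 2785 to 4116 TPM, CASP1, a protein of the root endodermis, at 29.3 to 47.7 TPM, and the root iron transporter IRT1, at 31.2 to 129.9 TPM. Root transcripts were thus present beside the leaf label in every library. For 0 of the 7 root markers did the genotypes stand apart, beside 27.9% of all tested features. Of 5 seed markers, 4 were lower in OE without overlap, beside 14.2% of all tested features. The 5 summed to 51.0 and 56.3 TPM in WT against 0.51 and 4.27 TPM in OE. In the test described below 1 of the 4 tested seed markers was called, lower in OE (limma, Benjamini-Hochberg), beside 0.03%.

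**Figure D1:**
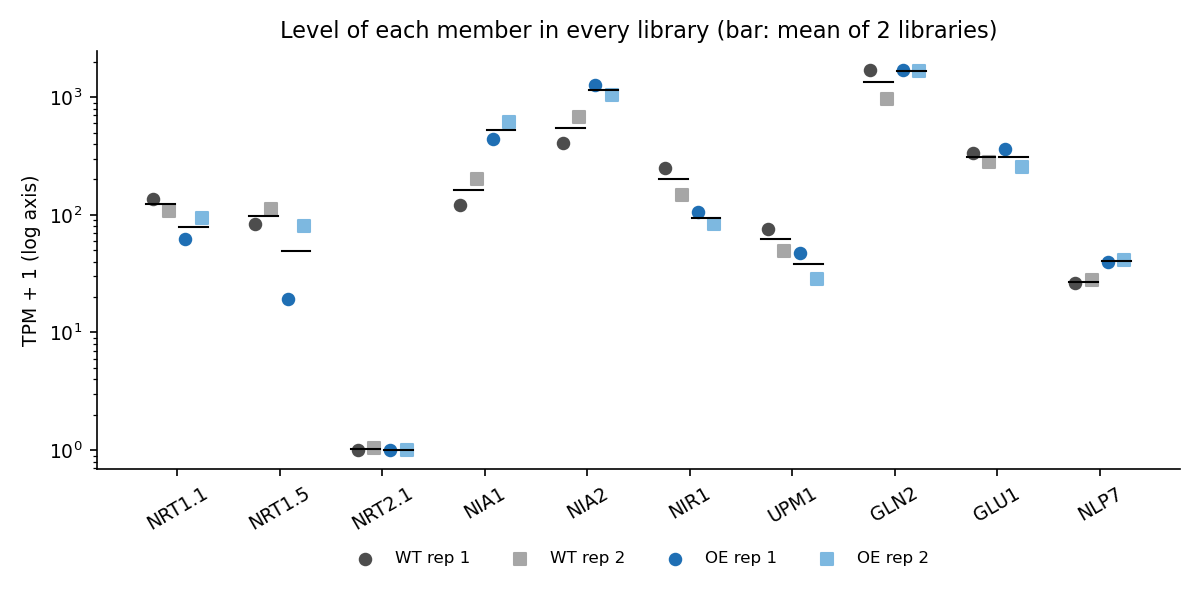
TPM + 1 on a log axis for each of the 10 genes in the 4 libraries, with the mean of the 2 libraries of a genotype as a bar. The nitrate reductases NIA1 and NIA2 stand higher in both OE libraries, NIR1 and UPM1 stand lower, and NRT2.1 lies at the bottom of the axis in every library.

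The question was whether genes of nitrate uptake and assimilation differed in transcript level when ERF4 was overexpressed. The samples were labelled as leaves but also held root transcripts, so the levels cannot be assigned to leaves alone. The nitrate reductases NIA1 and NIA2 and the regulator NLP7 were higher in both OE libraries than in both WT libraries. NIR1, UPM1, NRT1.1 and NRT1.5 were lower in both. GLN2 and GLU1 overlapped between genotypes, and NRT2.1 was near 0 throughout. Transcripts of the step that makes nitrite and of the step that uses it therefore stood on opposite sides of WT. None of these differences passed the test over all features.

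For the test, values were log2(TPM + 1), and the 20010 features that averaged 1 TPM or more were fitted. Of the 10 genes, 9 reached that mean, and NRT2.1 did not. At a Benjamini-Hochberg adjusted p of 0.05 (limma, two-sided) 0 of the 9 were called, beside 0.09% of all tested features (0.06% higher and 0.03% lower in OE). At an unadjusted p under 0.05 there were 3 of 9, beside 5.3% of all features: NIA1 higher in OE, beside 2.69%, and NIR1 and NRT1.5 lower, beside 2.61%. The genotypes did not overlap for 7 of 9, beside 27.9% of all features: 3 higher in OE, beside 13.7%, and 4 lower, beside 14.2%. The 10 genes and the lists below were chosen with earlier results of these data known. Counts set beside these shares are therefore descriptions and not tests. The median log2 fold change of the 9 was -0.02, equal to the -0.02 over all tested features, since the members lay on both sides. An exact two-sided permutation test of a single gene cannot give a p below 0.333 with 2 libraries against 2.

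Nitrate reductase transfers electrons from NADH to nitrate and is encoded by a pair of paralogs. NIA1 had 119.7 and 201 TPM in WT against 436 and 616 TPM in OE. Every OE library was above every WT library, and the gap between the nearest libraries of the genotypes, 1.111 on the log2 scale, was larger than the gap between replicates in WT (0.74) or in OE (0.50). Its means were 160.4 ± 57.6 and 526 ± 128 TPM (SD, n = 2), 3.28-fold higher in OE. The log2 fold change of NIA1 was 1.73 (SE 0.486; Benjamini-Hochberg adjusted p = 0.416, limma).

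NIA2, the paralog known to carry most of the leaf enzyme activity, had 404 and 681 TPM in WT against 1260.2 and 1034 TPM in OE. The genotypes did not overlap, but the gap between their nearest libraries was 0.60 on the log2 scale, smaller than the 0.75 between the WT replicates. The means were 542 ± 196 TPM and 1147 ± 160.0 TPM (SD, n = 2), 2.12-fold higher in OE. This gave a log2 fold change of 1.121 (SE 0.556; Benjamini-Hochberg adjusted p = 1.00, limma). Both reductases were lowest in WT replicate 1. Reads shared between such paralogs could be split between them by the authors' quantification, so their separate values are less certain than their sum. That sum was 523 and 882 TPM in WT against 1696 and 1650.4 TPM in OE, again without overlap.

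NIA1 made up 22.9% and 22.8% of the summed reductase transcripts in the WT libraries. In OE it made up 25.7% in replicate 1 and 37.4% in replicate 2. The WT libraries were nearly equal in this share although their reductase totals differed, and both OE libraries were above them. The log2 ratio of NIA1 to NIA2 was 0.62 higher in OE, 0.22 without OE replicate 2 and 1.01 without OE replicate 1, so its size rested on OE replicate 2.

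Nitrite reductase takes electrons from ferredoxin and carries siroheme, which UPM1 helps to make. NIR1 had 249.6 and 147.6 TPM in WT against 104.3 and 83.3 TPM in OE. All OE values lay below all WT values, with a gap of 0.50 on the log2 scale between the nearest libraries and 0.75 between the WT replicates. The means were 198.6 ± 72.1 TPM and 93.8 ± 14.9 TPM (SD, n = 2), 2.12-fold lower in OE. On the log2 scale the difference was -1.03 (SE 0.439; Benjamini-Hochberg adjusted p = 0.874, limma), and -0.66 without WT replicate 1.

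UPM1, the uroporphyrinogen methyltransferase of siroheme synthesis, had 74.5 and 48.6 TPM in WT against 46.8 and 27.6 TPM in OE. WT replicate 2 and OE replicate 1 were almost equal, with a gap of 0.05 on the log2 scale, so the genotypes were barely apart. The fitted log2 difference was -0.73 (SE 0.417; Benjamini-Hochberg adjusted p = 1.00, limma). NIR1 and UPM1 ranked the 4 libraries alike: WT replicate 1 was highest, then WT replicate 2, OE replicate 1 and OE replicate 2. NIA1 and NLP7 ranked them in exactly the reverse order. NIA2, NRT1.1 and NRT1.5, also without overlap, had other orders. Few orders are possible once the genotypes stand apart, and the share of all features with these orders was not computed.

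The ratio of summed NIA1 and NIA2 to NIR1 was taken after their values were seen, and is a description of them. Within a library this ratio of TPM was 2.097 and 5.97 in WT and 16.3 and 19.8 in OE. On the log2 scale the means were 1.82 ± 1.07 and 4.17 ± 0.202 (SD, n = 2), a difference of 2.34. It was 1.59 without WT replicate 1, the library with the lowest ratio, and 3.098 without WT replicate 2. Ratios within a library do not depend on how that library was scaled.

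**Figure D2:**
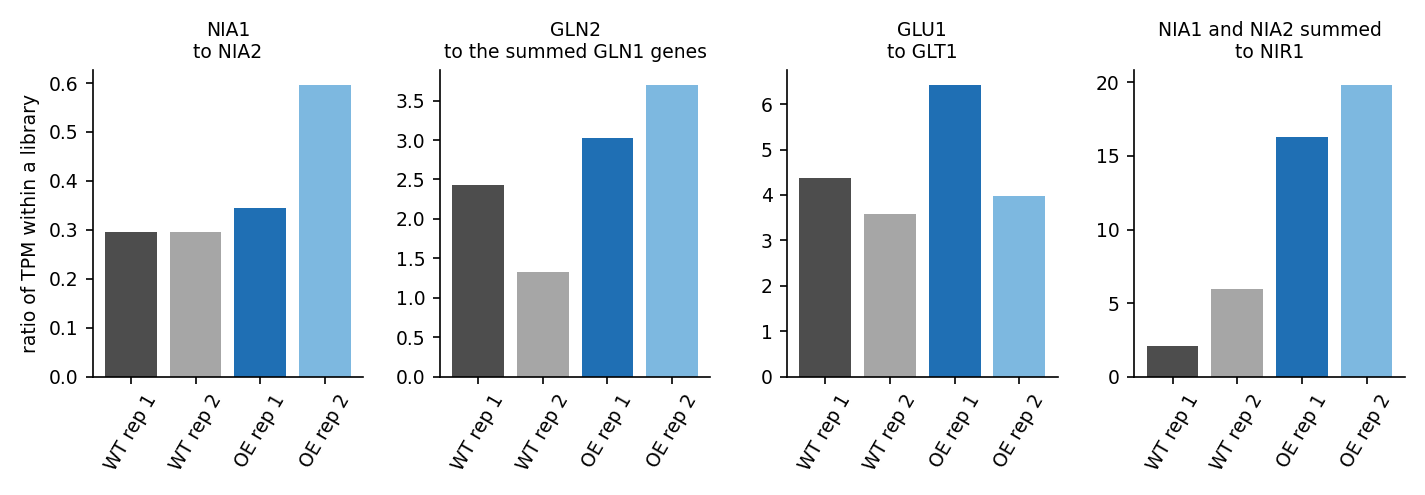
Ratio of TPM within each of the 4 libraries for NIA1 to NIA2, GLN2 to the summed cytosolic GLN1 genes, GLU1 to GLT1, and summed NIA1 and NIA2 to NIR1. The last ratio is 2.097 and 5.97 in WT and 16.3 and 19.8 in OE, while that of GLU1 to GLT1 overlaps between genotypes.

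GLN2 is the plastid glutamine synthetase and was the most abundant of the 10 genes in both genotypes. It had 1707 and 965 TPM in WT against 1697 and 1655 TPM in OE. WT replicate 2 was low and the other libraries were close to each other, so the genotypes overlapped. Its log2 fold change was 0.38 (SE 0.624; Benjamini-Hochberg adjusted p = 1.00, limma). The summed leaf mesophyll markers were also lowest in WT replicate 2, at 19784 TPM beside 27000.2 to 56546 TPM in the other libraries, and their part in the level of GLN2 was not tested.

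GLN2 shares its reaction with cytosolic glutamine synthetases, which act in vascular transport of nitrogen among other roles. GLN1.2, the most abundant of these, had 544 and 423 TPM in WT against 331 and 276 TPM in OE. It did not overlap between genotypes (log2 fold change -0.66, SE 0.476; Benjamini-Hochberg adjusted p = 1.00, limma). GLN1.1 had 86.7 and 146.8 TPM in WT against 140.6 and 114.7 TPM in OE, and GLN1.3 had 69.2 and 153.8 against 88.4 and 53.7 TPM, both with overlap. GLN1.4 and GLN1.5 stayed at 2.39 TPM or less. GLN2 held 70.8% and 57.1% of all glutamine synthetase transcripts in WT and 75.1% and 78.7% in OE. Its log2 ratio to the summed GLN1 genes was 0.90 higher in OE (0.85 ± 0.615 and 1.74 ± 0.207, SD, n = 2), and 0.46 without WT replicate 2. GLN1 genes are similar in sequence, so the split of reads among them is uncertain.

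GLU1, the ferredoxin-dependent glutamate synthase of leaves, had 332 and 281 TPM in WT against 358 and 255 TPM in OE. Its means were 307 ± 35.6 TPM and 307 ± 73.4 TPM (SD, n = 2), and the libraries overlapped fully. The fitted log2 difference was -0.02 (SE 0.465; Benjamini-Hochberg adjusted p = 1.00, limma), and the SE leaves room for a change in either direction. Its paralog GLU2 had 36.9 and 57.7 TPM in WT against 35.9 and 26.3 TPM in OE. GLT1, the glutamate synthase that uses NADH, had 75.7 and 78.4 TPM in WT against 55.8 and 64.1 TPM in OE. Both were lower in OE, with log2 fold changes of -0.57 and -0.36 (Benjamini-Hochberg adjusted p = 1.00 for each, limma). The nearest libraries of GLU2 were almost equal, and its value ran from -0.89 without WT replicate 1 to -0.26 without WT replicate 2.

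Among the transporters, NRT1.1, a dual-affinity carrier that also senses nitrate, had 135.2 and 107.4 TPM in WT against 61.3 and 93.1 TPM in OE. The genotypes were separated by 0.20 on the log2 scale, less than the replicates within either of them. This gave a log2 fold change of -0.67 (SE 0.413; Benjamini-Hochberg adjusted p = 1.00, limma).

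NRT1.5, known for loading nitrate into the root xylem, had 83.2 and 110.3 TPM in WT against 18.1 and 78.8 TPM in OE. OE replicate 1 stood far below the other libraries, and OE replicate 2 lay only 0.08 on the log2 scale below the lower WT library. The log2 fold change was -1.31 (SE 0.585; Benjamini-Hochberg adjusted p = 0.926, limma). Leaving out OE replicate 1 gave -0.28, and leaving out OE replicate 2 gave -2.34 (Benjamini-Hochberg adjusted p = 0.0481, limma). That p comes from 1 OE library, which the fit assumes to vary like the WT libraries, and is not counted here as a call. The difference thus rested on 1 library. Summed root markers were lowest in the same library, at 2924 TPM beside 3361 to 4220 TPM in the others. That sum was mostly PYK10, at 2785 TPM there. By mean log2(TPM + 1) the root markers were lowest in WT replicate 2, at 5.09 beside 5.33 in OE replicate 1. The part of root transcripts in the result for NRT1.5 was not tested.

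NRT2.1, the main high-affinity uptake transporter of roots, was listed at 0 in 3 libraries and at 0.05 TPM in WT replicate 2. Its close paralog NRT2.2, named after its values were seen, was likewise above 0 in that library alone, at 0.03 TPM. No fold change is given at such values. NRT3.1, the partner protein that NRT2.1 needs for transport, was measured at 13.2 and 5.68 TPM in WT against 11.6 and 26.7 TPM in OE, with overlap. The ratio of NRT2.1 to NRT3.1 could not be formed from these values.

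NLP7 binds nitrate-responsive promoters and moves to the nucleus when nitrate is supplied. It had 25.1 and 26.8 TPM in WT against 38.6 and 40.2 TPM in OE. Replicates were close to each other in both genotypes: the gaps were 0.09 on the log2 scale in WT and 0.06 in OE, against 0.51 between the nearest libraries of the genotypes. The means were 26.0 ± 1.17 TPM and 39.4 ± 1.16 TPM (SD, n = 2), 1.52-fold higher in OE. On the log2 scale the difference was 0.58 (SE 0.354; Benjamini-Hochberg adjusted p = 1.00, limma), with an SE that comes largely from other genes. It ran from 0.54 to 0.63 when each library was left out in turn. NIA1 and NLP7 were the 2 of 9 genes whose gap between genotypes was larger than the gap between replicates in either genotype, beside 6.49% of all tested features.

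**Figure D3:**
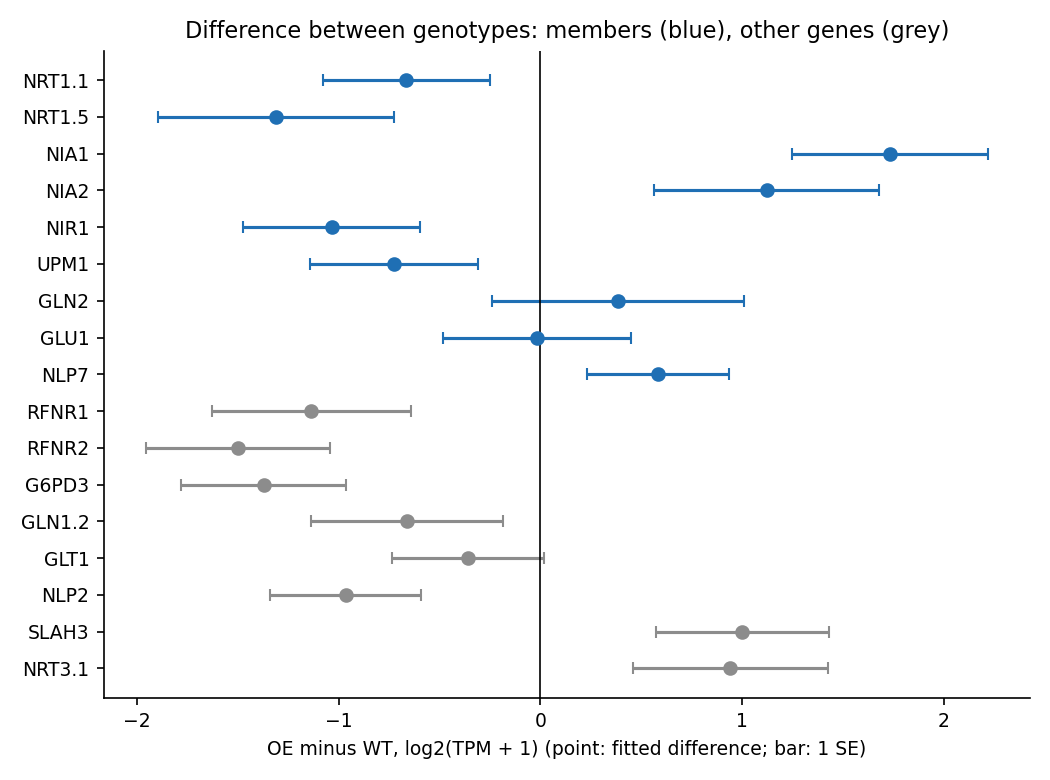
Fitted difference OE minus WT in log2(TPM + 1), with 1 SE, for the 9 tested genes (blue) and for 8 further genes of nitrogen metabolism (grey). NIA1 lies at 1.73, NIR1 at -1.03 and GLU1 at -0.02, and the reductant genes RFNR1, RFNR2 and G6PD3 lie between -1.50 and -1.14.

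By level, the WT order was GLN2, NIA2, GLU1, NIR1, NIA1, NRT1.1, NRT1.5, UPM1, NLP7 and NRT2.1. Neighbours from NIR1 to NRT1.5 in that order had libraries that overlapped, so their order was not resolved. In OE the order was GLN2, NIA2, NIA1, GLU1, NIR1, NRT1.1, NRT1.5, NLP7, UPM1 and NRT2.1, with overlap between neighbours from NIR1 to UPM1. NIA1 moved from the fifth to the third place. Of all tested features GLN2 stood at the 99.8th percentile of mean TPM and NLP7 at the 71.7th.

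The rest of the pathway was read from lists by role, which overlap with the 10 genes. In the list of nitrate transporters and channels 15 of 22 genes had a mean of at least 1 TPM. None was called (limma, Benjamini-Hochberg), beside 0.09% of all features, with 2 at an unadjusted p under 0.05, beside 5.3%. OE stood above WT without overlap for 5, beside 13.7%, and below for 3, beside 14.2%. The median log2 fold change was 0.38, but -0.06 without WT replicate 1, so its sign rested on that library. SLAH3, an anion channel that conducts nitrate, had 19.9 and 43.4 TPM in WT against 59.6 and 60.3 TPM in OE. Its log2 fold change was 1.00 (SE 0.429; Benjamini-Hochberg adjusted p = 0.887, limma), 0.46 without WT replicate 1 and 1.54 without WT replicate 2. NRT1.8, which removes nitrate from the xylem, had 0.37 and 2.28 TPM in WT against 2.37 and 4.59 TPM in OE, and the nearest libraries were almost equal.

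The list that supplies reductant and carbon skeletons stood mostly lower in OE. Of 10 genes, all tested, 0 were called (limma, Benjamini-Hochberg), beside 0.09% of all features. An unadjusted p under 0.05 was found for 3, all lower in OE, beside 2.61%. OE lay below WT without overlap for 5, beside 14.2%, and above for 0, beside 13.7%. Of the log2 fold changes 9 of 10 were negative, beside 10353 of all 20010 features. The median of -0.41 became -0.76 when OE replicate 1 was left out and -0.24 when OE replicate 2 was. RFNR2, a ferredoxin reductase of the non-green plastid type, had 147.2 and 71.4 TPM in WT against 45.7 and 27.8 TPM in OE. Its log2 fold change was -1.50 (SE 0.457; Benjamini-Hochberg adjusted p = 0.486, limma), and -0.98 without WT replicate 1. G6PD3, a plastid glucose-6-phosphate dehydrogenase that yields NADPH, had 37.2 and 21.5 TPM in WT against 13.2 and 8.02 TPM in OE. Its log2 fold change was -1.37 (SE 0.409; Benjamini-Hochberg adjusted p = 0.465, limma). RFNR2 and G6PD3 had the library order of NIR1 and UPM1, with WT replicate 1 highest and OE replicate 2 lowest. RFNR1 had 54.8 and 106.0 TPM in WT against 52.8 and 22.0 TPM in OE, and AT5G41670 had 143.5 and 100.2 against 71.5 and 61.7 TPM.

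In the list of assimilation enzymes 11 of 12 genes were tested and 0 called, beside 0.09% of all features. At an unadjusted p under 0.05 there were 2, beside 5.3% (limma). Both of these, NIA1 and NIR1, are described above. Among 10 genes that make the cofactors of nitrate and nitrite reductase 0 were called, beside 0.09%. There 0 had an unadjusted p under 0.05, beside 5.3% (limma), with log2 fold changes from -0.75 to 0.39. MOT1, a molybdate transporter, had 3.57 and 7.09 TPM in WT against 1.16 and 5.06 TPM in OE. CNX7 and CNX3, enzymes of molybdenum cofactor synthesis, had log2 fold changes of 0.39 and -0.33.

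For 25 tested genes of nitrate sensing and transcription, OE stood above WT without overlap for 7, beside 13.7% of all features. It stood below for 3, beside 14.2%. Of the 25, 0 were called, beside 0.09%, and 1 had an unadjusted p under 0.05, beside 5.3% (limma). That gene was NLP2, a relative of NLP7, with 8.21 and 7.68 TPM in WT against 3.89 and 3.28 TPM in OE. Its log2 fold change was -0.97 (SE 0.373; Benjamini-Hochberg adjusted p = 0.766, limma), of opposite sign to that of NLP7. NLA, a ubiquitin ligase of nitrogen limitation, had 5.54 and 24.4 TPM in WT against 20.4 and 22.2 TPM in OE, and WT replicate 1 alone was low. CPK30, a calcium-dependent kinase of nitrate signalling, had 12.8 and 19.5 TPM in WT against 23.0 and 21.1 TPM in OE. Among the 4 tested ammonium transporters 0 were called, beside 0.09%, and 0 had an unadjusted p under 0.05, beside 5.3% (limma). AMT1.2 had 45.2 and 16.2 TPM in WT against 17.8 and 11.9 TPM in OE, AMT2.1 had 6.44 and 7.88 against 10.1 and 9.66 TPM, AMT1.3 had 10.4 and 2.79 against 1.75 and 7.19 TPM, and AMT1.1 stayed between 1.23 and 2.83 TPM.

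**Figure D4:**
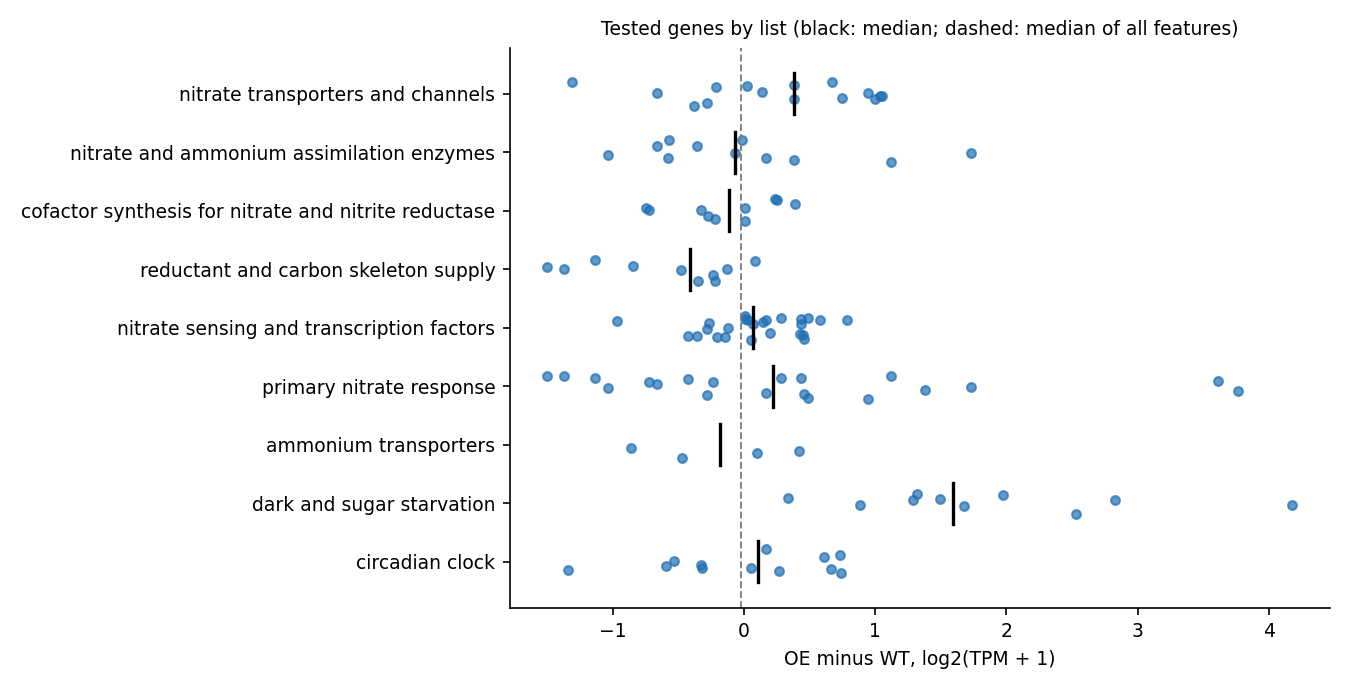
OE minus WT in log2(TPM + 1) for every tested gene of 7 nitrogen lists and of the dark and clock lists, with the median of each list in black and that of all tested features dashed. The reductant list lies mostly below 0, the primary nitrate response spreads from -1.50 to 3.77, and all 10 genes of dark and sugar starvation lie above 0.

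Genes known to be induced by nitrate did not stand on one side. Their list was written with earlier results of these data known. Of 20 tested genes in that list 2 were called, both higher in OE (limma, Benjamini-Hochberg), beside 0.09% of all features. At an unadjusted p under 0.05 there were 8, 4 in each direction, beside 5.3%. OE was above WT without overlap for 8, beside 13.7%, and below for 6, beside 14.2%. The median log2 fold change was 0.22, and ran from 0.10 without OE replicate 2 to 0.38 without WT replicate 2. The called genes were the scaffold proteins BT2, with a log2 fold change of 3.61 (SE 0.389; Benjamini-Hochberg adjusted p = 0.00625, limma), and BT1, with 3.77 (SE 0.516; adjusted p = 0.0221). Both lost their calls in 5 of the alternative fits, in which the log2 fold changes were about as large, 3.40 to 3.82 for BT2 and 3.47 to 4.07 for BT1. Among these were the fits without either WT library, where the limma adjusted p was 0.345 and 0.157 for BT2 and 0.639 and 0.320 for BT1. They hold 1 WT library, which is assumed to vary like the OE libraries. On the same side as BT1 and BT2, without overlap, were NIA1, NIA2, CIPK3, HHO2 (AT1G68670), HHO3 (AT1G25550) and LBD37. NIR1, UPM1, NRT1.1, G6PD3, RFNR1 and RFNR2 stood on the other side.

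**Figure D5:**
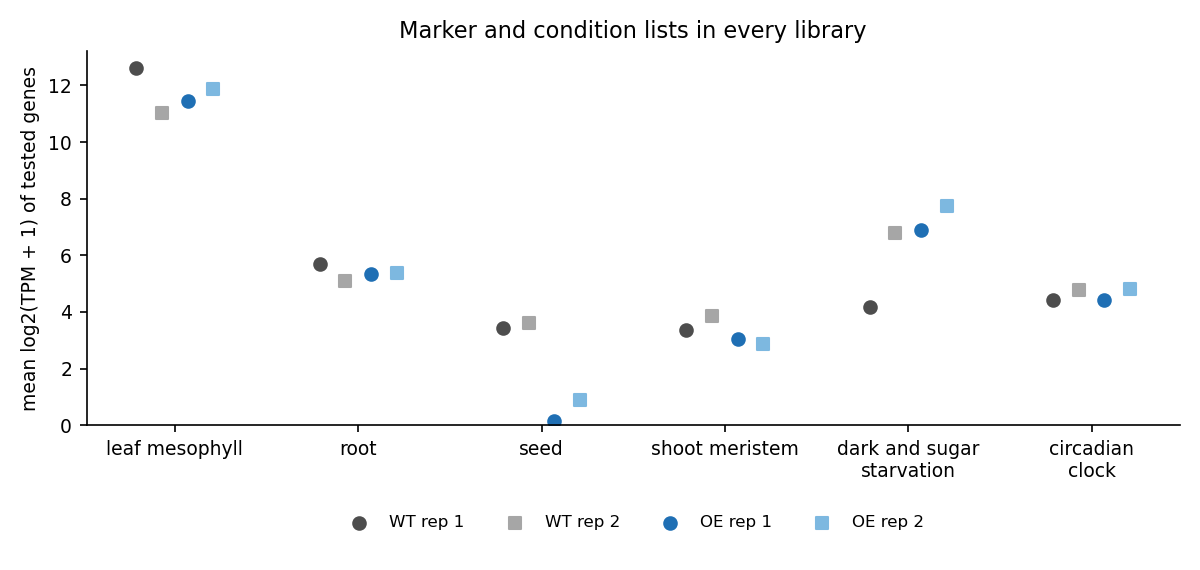
Mean log2(TPM + 1) of the tested genes of 4 marker lists and of the dark and clock lists in each library. WT replicate 1 is lowest for dark and sugar starvation, at 4.16 beside 6.78 to 7.74, and the seed list is lower in both OE libraries.

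Other lists also varied between libraries. The list of genes induced by darkness and sugar shortage had a mean log2(TPM + 1) of 4.16 and 6.78 in WT replicates 1 and 2 and 6.90 and 7.74 in the OE libraries. This is the library order of NIA1, but the steps were unlike. The list differed most between the WT libraries. For NIA1 the gap between genotypes, 1.111, was larger than the 0.74 between the WT replicates. Of the 10 genes in the list, 6 stood higher in OE without overlap, beside 13.7% of all features. None was called, beside 0.09%, while 6, all higher in OE, had an unadjusted p under 0.05 (limma), beside 2.69%. The number called was 1 at a mean of at least 5 TPM, 2 with a robust prior, 5 with a replicate block and 4 without OE replicate 1, where the lone OE library is assumed to vary like WT. The median log2 fold change of 1.59 became 0.42 when WT replicate 1 was left out and 2.36 when WT replicate 2 was. TPS11, of the trehalose phosphate synthase family, had 22.1 and 31.0 TPM in WT against 111.5 and 100.4 TPM in OE (Benjamini-Hochberg adjusted p = 0.144, limma), and its relative TPS8 35.7 and 60.8 against 99.7 and 139.3 TPM. DIN10, a raffinose synthase-like protein, had 64.4 and 218.9 against 548 and 871 TPM, and the asparagine synthetase ASN1 0.38 and 43.0 against 49.1 and 398 TPM. Their part in the result for NIA1 was not tested.

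Nitrate reductase transcripts are known to cycle over the day, and the sources used here give no hour of harvest. Of 12 clock genes 0 were called, beside 0.09% of all features, and 1 had an unadjusted p under 0.05 (limma), beside 5.3%. OE stood higher without overlap for 4, beside 13.7%, and lower for 2, beside 14.2%. Their median log2 fold change, 0.11, turned to -0.17 without WT replicate 1. PRR9, a morning gene, had 15.1 and 15.6 TPM in WT against 2.44 and 11.0 TPM in OE. The evening genes TOC1, ELF3 and ELF4 had 14.8 and 24.5, 12.5 and 20.5, and 20.7 and 21.4 TPM in WT. In OE they had 28.6 and 36.7, 27.2 and 27.5, and 30.8 and 34.8 TPM. OE replicate 1 was thus lowest for PRR9, as it was for NRT1.5 and NRT1.1. The OE libraries also differed from each other for LHY, at 236 and 64.2 TPM, and PRR7, at 22.8 and 149.7 TPM. The WT libraries had 178 and 180 TPM of LHY and 39.9 and 68.0 TPM of PRR7. For ELF3 the OE libraries were close. The part of harvest time in these results was not tested.

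Patterns most like that of NIA1 over the 4 libraries were sought among 7138 features with a symbol and a mean of at least 5 TPM, as the root-mean-square difference of centred log2(TPM + 1) profiles. The nearest were RD26 at 0.107, PGL1 at 0.165, HSFA2 at 0.166 and OCT6 at 0.170. RD26, a NAC transcription factor of stress and senescence, had 11.6 and 21.4 TPM in WT against 39.7 and 68.6 TPM in OE. For NIA2 the nearest were PYL5 at 0.0563, TET8 at 0.0679, BEH2 at 0.0699 and UGT76E2 at 0.0730. PYL5, an abscisic acid receptor, had 46.0 and 85.0 TPM in WT against 155.0 and 132.5 TPM in OE. NIA1 and NIA2 were not among each other's nearest 4.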

How the data were processed

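Gene-level TPM for the 4 libraries were deposited by the authors as 1 table, with 2 columns of their mean TPM per genotype, which entered no test. The tools were fastp, HISAT and RSEM, per the submitters' processing notes. For versions, build, annotation and strand nothing was found (not given in the sources used here), so no coordinates or sequences are printed. The column of the second WT library carries another number than its title, and the label tying it to the sample was followed. TPM keeps no read number, so depth is unknown and no counting interval is given.

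The members and gene lists were chosen with earlier results of these data known. Of 144 listed loci 143 were in the table and matched RefSeq TAIR10.1 by locus, used for names alone. Genotypes were compared with limma 3.58.1 in R 4.3.3 on log2(TPM + 1), with a variance trend, over the 20010 features averaging 1 TPM or more. There were 2 residual and 8.73 prior degrees of freedom. Adjusted p-values (Benjamini-Hochberg, threshold 0.05) cover all tested features. Lists were described by counts and medians. Besides the 10 members, the genes named were those called in each list or, below 4, the 4 with the smallest p, partners in a fixed ratio, ERF4, and the 4 nearest profiles to NIA1 and NIA2. BT1 and BT2 apart, none of these passed. The root markers named, NRT2.2, LHY, PRR7, CIPK3, HHO2, HHO3, LBD37 and the ratio to NIR1 were chosen after their values were seen. The fit was also run on simulated data, with a spread drawn from its own prior and independent between genes. Such data cannot show how shifts shared by many genes of a library act on the calls. Figures were drawn with matplotlib 3.10.9 in Python 3.11.15. Alternatives changed the pseudocount (0.1 or 5), the filter (none, or 5 TPM), the scaling (quantile, median-ratio, or organelle features left out), the variance prior (robust, or without a trend), the model (a replicate block) and the libraries (each left out in turn).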

Additional observations from a re-analysis of the deposited data

How the results depend on the processing

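Of the 9 tested genes 0 were called by limma in the comparison as designed and in 12 of 14 alternatives. With the replicate number as a block 1 was called, NIA1 (limma adjusted p = 0.0404), and without OE replicate 2 NRT1.5 passed the threshold, in a fit whose lone OE library is assumed to vary like WT. Same-numbered libraries did not deviate together (correlation of deviations 0.0325 across features) and share only a number, so the block is not a design feature. Over all features 18 were called as designed, 0 with no filter, quantile normalization or median-ratio scaling, 63 at a mean of at least 5 TPM, 108 with a robust prior, 338 with the replicate block, and 0 to 293 when each library was left out. The cause was not tested. With the 0 calls of the first 3, 1072, 1114 and 1131 features had an unadjusted p under 0.05, and 1123 and 1819 without WT replicates 1 and 2.

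Leaving out each library, the log2 fold change ran from 1.36 to 2.105 for NIA1, 0.75 to 1.498 for NIA2, -1.41 to -0.66 for NIR1, -1.10 to -0.36 for UPM1 and -0.96 to -0.37 for NRT1.1. These 5 genes, NRT1.5 and NLP7 kept their sign in all 14 alternatives. The range crossed 0 for GLN2 (-0.026 to 0.80, negative without WT replicate 2), GLU1 (-0.26 to 0.23), NLA (-0.19 to 1.77), AMT1.3 (-1.26 to 0.32), AMT1.1 (-0.29 to 0.49), GLN1.1 (-0.21 to 0.54) and GLN1.4 (-0.24 to 0.11). The sign of GLU1 turned without WT replicate 1 (0.10) or OE replicate 2 (0.23). That of GLN1.4 also turned with quantile normalization (0.0099). Differences in log2 ratio were 0.22 to 1.01 for NIA1 to NIA2, 0.46 to 1.33 for GLN2 to the GLN1 genes and 0.00 to 0.69 for GLU1 to GLT1. Unknown depth limits statements on NRT2.1, NRT2.2 and other genes near 0.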
